A study of Mus musculus with 2 samples.

Results

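The Ly6 surface protein genes described here are 8 neighbouring genes of mouse chromosome 15, namely Ly6a, Ly6c1, Ly6c2, Ly6d, Ly6e, Ly6f, Ly6i and Ly6k, of 23562 genes in the deposited table. They were picked by name, with earlier results of the same comparison known, so their differences are a description and carry no test. RNA was sequenced from 2 forms of AS0574, a line of mouse breast tumour cells. The Rnf8-null form carried Rnf8-/- and Trp53 delta/delta, and the Rnf8-complemented form was the same Rnf8-/-;Trp53 delta/delta line with Rnf8 put back, so both lacked Trp53 by their labels and neither came from cells with Rnf8 intact. Each form had 1 library, so there was no replicate and no p-value, and no difference below has a replicate check. The sources used here do not say whether either form was 1 clone.

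Ly6 proteins are small, disulphide-bonded proteins that most often sit on the outer face of the cell membrane by a GPI (glycosylphosphatidylinositol) lipid anchor. Several are used as surface markers of blood and epithelial cells. In mouse, Ly6a (Sca-1) marks blood stem cells and subsets of mammary epithelial and mammary tumour cells, and interferons are known to raise Ly6a, the Ly6c genes and Ly6e in several cell types.

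Counted reads came to 57263401 for Rnf8-null cells and 48607808 for Rnf8-complemented cells. Rnf8, the gene put back, stood at 10.5 RPKM (reads per kilobase of gene, adjusted for the size of the library) in Rnf8-null cells and 596 RPKM in Rnf8-complemented cells. Trp53, the other deleted gene, stood at 6.15 RPKM in Rnf8-null cells and 4.69 RPKM in Rnf8-complemented cells, and counts per gene do not show which exons were read. All 11 epithelial markers examined, among them Krt8 and Epcam, were higher in Rnf8-null cells by the call rule given below, beside 14.8% of all genes measured. They passed its filter through their level in Rnf8-null cells alone, so the count is a description. Together they summed to 6512 RPKM in Rnf8-null cells, against 1.49 RPKM in Rnf8-complemented cells. The 8 mesenchymal markers summed to 1.69 RPKM in Rnf8-null cells and 216 RPKM in Rnf8-complemented cells. The defining epithelial markers of a mammary tumour were thus near 0 in the library labelled Rnf8-complemented. In bulk RNA, fewer cells of a type and less RNA per cell cannot be told apart. The part of this epithelial difference in the Ly6 values was not tested.

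All 8 Ly6 genes had more reads, scaled to the library total, in Rnf8-null cells. Calls rest on the difference in log2(RPKM + 1), Rnf8-null minus Rnf8-complemented: at least 1 counts as higher, at most -1 as lower, and only genes whose RPKM averages at least 1 are measured. Because of the added 1, a gene with neither call can differ by more than 2-fold in RPKM where its level is low. By that rule 5 of the 8 (Ly6a, Ly6c1, Ly6c2, Ly6d and Ly6e) were higher, 0 were lower, and Ly6f, Ly6i and Ly6k lay below the mean of 1. Over all 12609 genes measured, 14.8% were called higher (1866) and 15.9% lower (2010). With TMM scaling, a trimmed mean that is less swayed by a few abundant genes, 2181 were higher and 1551 lower, and the median of all genes moved by 0.20 on the log2 scale. The 5 measured members had a median log2 difference of 2.66, beside a median of -0.17 over all genes measured. Ly6d and Ly6c2 passed the filter through their level in Rnf8-null cells alone, so these counts are given as a description.

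**Figure D1:**
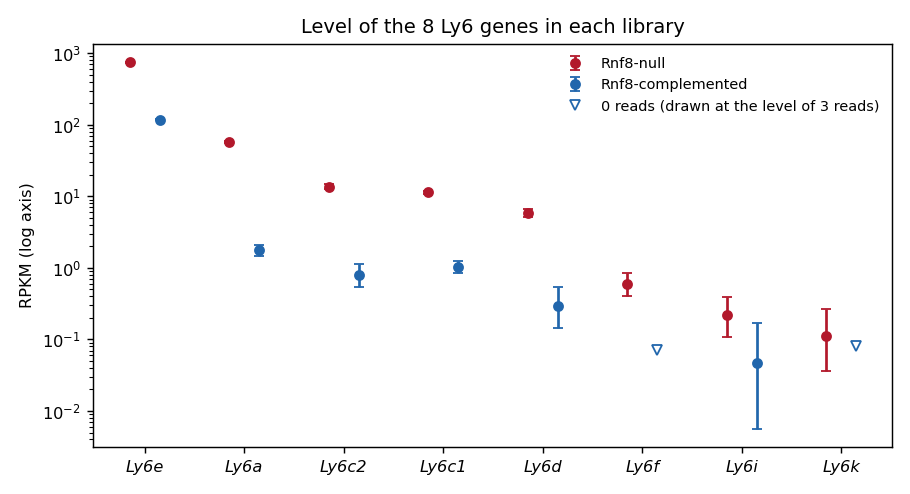
RPKM on a log axis for the 8 Ly6 genes in the Rnf8-null (red, left of each pair) and the Rnf8-complemented library (blue, right), with bars for exact 95% Poisson intervals on the read counts; open triangles stand for 0 reads and are drawn at the level of 3 reads. Ly6e stands highest in both libraries, at 741 RPKM in Rnf8-null cells and 117 RPKM in Rnf8-complemented cells, and the intervals of Ly6i and Ly6k overlap between the libraries.

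Ly6e (chromosome 15, 74955051 to 74959905 of GRCm38, plus strand) was the most abundant member by far. In mouse, Ly6e is the receptor of the placental fusion protein syncytin-A, and it limits coronavirus entry. It had 129405 reads and 741 RPKM (exact 95% Poisson interval 737 to 745) in Rnf8-null cells, against 17285 reads and 117 RPKM (115 to 118) in Rnf8-complemented cells. That was a 6.35-fold higher level in Rnf8-null cells, with an exact conditional binomial interval of 6.25 to 6.46, and the log2 difference was 2.66. All such intervals cover counting error only, and PCR copies were not told apart from separate molecules. Ly6e ranked 147 of 23562 genes by RPKM in Rnf8-null cells and 637 in Rnf8-complemented cells, so it was an abundant transcript in both. It took 94.6% of the reads of the 8 genes in Rnf8-null cells and 98.4% in Rnf8-complemented cells.

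Ly6a (chromosome 15, 74994877 to 74998031, minus strand), the gene of Sca-1, had the widest difference of the 8. It had 5149 reads and 56.9 RPKM (55.4 to 58.5) in Rnf8-null cells, against 136 reads and 1.77 RPKM (1.49 to 2.09) in Rnf8-complemented cells. The ratio was 32.1 (interval 27.1 to 38.4) and the log2 difference 4.39, with 223 of the 12609 measured genes at or above it. Its ratio interval lay above those of Ly6e, Ly6c1 and Ly6c2 and overlapped that of Ly6d. By RPKM it ranked 1462 of all genes in Rnf8-null cells and 11086 in Rnf8-complemented cells, where it stood in the middle of the table. In RefSeq the gene Gm28068 overlaps both Ly6a and Ly6i, and reads in the shared stretches cannot be assigned to one gene.

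Ly6c1 and Ly6c2 encode the near-identical Ly6C antigens, which mark monocytes and, for Ly6c1, endothelium in mouse. Ly6c1 (chromosome 15, 75044018 to 75048830, minus strand) had 1362 reads and 11.3 RPKM (10.7 to 11.9) in Rnf8-null cells, against 106 reads and 1.04 RPKM (0.849 to 1.25) in Rnf8-complemented cells, a ratio of 10.9 (8.95 to 13.4). Ly6c2 (chromosome 15, 75108158 to 75111970, minus strand) had 620 reads and 13.5 RPKM (12.5 to 14.6) in Rnf8-null cells, against 31 reads and 0.796 RPKM (0.541 to 1.13) in Rnf8-complemented cells, a ratio of 17.0 (11.8 to 25.2). The log2 differences were 2.60 for Ly6c1 and 3.01 for Ly6c2, and the ratio intervals of the pair overlapped. Which of the pair stood higher in Rnf8-null cells depended on gene length, and in Rnf8-complemented cells it was Ly6c1 on either length. The deposited RPKM rest on 2102 bases for Ly6c1 and 801 for Ly6c2, and with these Ly6c1 stood at 0.837 times Ly6c2 in Rnf8-null cells and 1.30 times Ly6c2 in Rnf8-complemented cells. On the exon lengths of GENCODE vM21 (1677 bases for Ly6c1 and 2740 for Ly6c2, which includes a retained intron), a choice made after seeing the data, it stood at 3.59 times Ly6c2 in Rnf8-null cells and 5.59 times in Rnf8-complemented cells.

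Markers of the blood and vessel cells in which Ly6 genes are best known were mostly near 0. The pan-leukocyte gene Ptprc had 0 reads in Rnf8-null cells and 1 read in Rnf8-complemented cells, and of 21 leukocyte markers 16 lay below a mean of 1 RPKM. Of the other 5, 4 were higher in Rnf8-null cells (S100a8, S100a9, Lcp1 and Itgb2) and 1, Cd68, lay within 2-fold. Over all genes measured, 14.8% were higher. The whole leukocyte list summed to 217 RPKM in Rnf8-null cells and 29.3 RPKM in Rnf8-complemented cells, of which the calprotectin gene S100a8 alone gave 175 RPKM in Rnf8-null cells and 17.1 RPKM in Rnf8-complemented cells. The 10 endothelial markers, among them Pecam1 and Cdh5, all lay below a mean of 1 and summed to 0.657 RPKM in Rnf8-null cells and 0.981 RPKM in Rnf8-complemented cells. The part of the leukocyte markers in the Ly6 values was not tested.

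Ly6d (chromosome 15, 74762056 to 74763620, minus strand) is known in mouse as a marker of early B lymphocytes and is also made by stratified epithelium. It had 229 reads and 5.79 RPKM (5.06 to 6.59) in Rnf8-null cells, against 10 reads and 0.298 RPKM (0.143 to 0.548) in Rnf8-complemented cells. The ratio was 19.4, with an interval of 10.4 to 41.1, and the log2 difference was 2.39. The keratins of stratified epithelium among the epithelial markers, Krt5 and Krt14, stood at 3.21 and 229 RPKM in Rnf8-null cells, against 0 and 0.335 RPKM in Rnf8-complemented cells.

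Ly6f, Ly6i and Ly6k were at or near the limit of detection. Ly6f and Ly6i are close relatives of Ly6a. Ly6f (chromosome 15, 75268421 to 75272235, plus strand) had 30 reads (0.597 RPKM) in Rnf8-null cells and 0 in Rnf8-complemented cells, which allows up to 0.0704 RPKM there at 3 reads. Against that floor Ly6f was at least 8.49-fold higher in Rnf8-null cells, and the lower limit of its conditional interval was 6.49. Ly6i (chromosome 15, 74979534 to 74983430, minus strand) had 11 reads (0.219 RPKM) in Rnf8-null cells and 2 reads (0.0469 RPKM) in Rnf8-complemented cells, a ratio of 4.67 with an interval of 1.02 to 43.3. Ly6k (chromosome 15, 74796874 to 74799986, minus strand), a gene of male germ cells whose protein acts in sperm, had 5 reads (0.113 RPKM) in Rnf8-null cells and 0 in Rnf8-complemented cells. Its conditional interval reached down to 0.778, so a difference in Ly6k was not detectable at this depth. An annotated transcript on the other strand, Gm17189, overlaps Ly6k, and without strand its reads cannot be told from those of Ly6k.

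By deposited RPKM the order of the levels was Ly6e, Ly6a, Ly6c2, Ly6c1, Ly6d, Ly6f, Ly6i and Ly6k in Rnf8-null cells. There only the intervals of Ly6i and Ly6k, the last pair, overlapped. In the Rnf8-complemented library the order was Ly6e, Ly6a, Ly6c1, Ly6c2, Ly6d and Ly6i, with Ly6f and Ly6k at 0 reads. There the intervals of each neighbouring pair from Ly6c1 downward overlapped. Both orders rest on the deposited gene lengths, which the intervals do not cover. On the exon lengths of GENCODE vM21, Ly6d stood above Ly6c2 in both libraries. The values were 5.38 against 3.95 RPKM in Rnf8-null cells and 0.277 against 0.233 RPKM in Rnf8-complemented cells. The distance between the top members was not the same in the 2 libraries. By deposited RPKM, Ly6e stood 13.0-fold above Ly6a in Rnf8-null cells and 65.8-fold above it in Rnf8-complemented cells. These folds also depend on gene length. On GENCODE exon lengths Ly6e and Ly6a stood at 597 and 74.6 RPKM in Rnf8-null cells, and at 94.0 and 2.32 RPKM in Rnf8-complemented cells. Without Ly6e the other 7 genes together had 7406 reads in Rnf8-null cells and 285 in Rnf8-complemented cells, a ratio of 22.1 (19.6 to 24.9), and with it the 8 genes had a ratio of 6.61 (6.51 to 6.71).

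**Figure D2:**
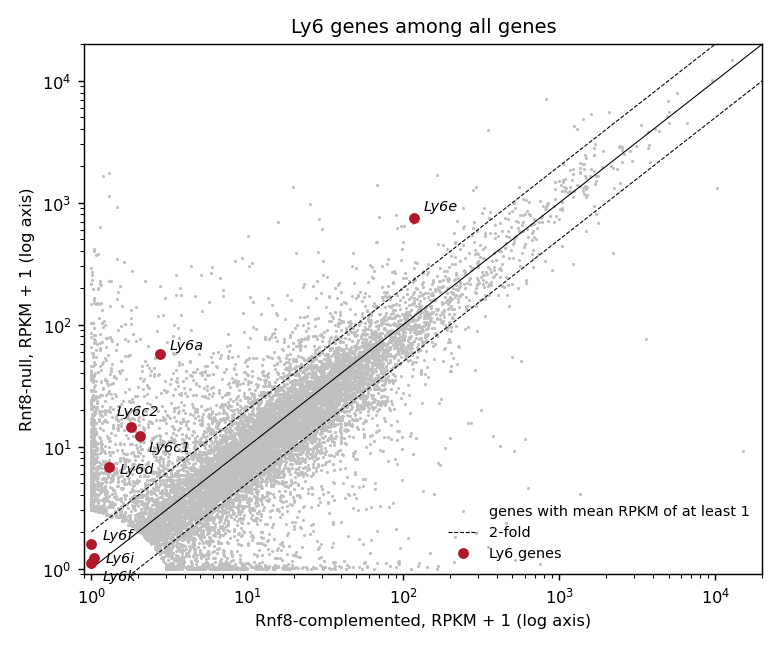
RPKM + 1 of each gene on log axes, Rnf8-null library up and Rnf8-complemented library across, with measured genes in grey, the 8 Ly6 genes in red, equality as a solid line and 2-fold as dashed lines. Ly6a, Ly6c1, Ly6c2, Ly6d and Ly6e lie above the upper dashed line, and Ly6f, Ly6i and Ly6k lie in the corner of low values.

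Ly6a, Ly6c1, Ly6c2, Ly6f and Ly6i are close copies of one another, and reads that fit more than 1 of them make the separate values of those that share sequence uncertain. Their coding sequences, aligned in pairs from GENCODE vM21, were 74.3% to 92.7% identical over 10 pairs, with Ly6c1 and Ly6c2 the closest. The 18 pairs that involve Ly6d, Ly6e or Ly6k were 58.9% to 66.0% identical. Of all 50-base windows of the Ly6c1 transcripts, 32.8% also occurred in another gene, mostly Ly6c2 and Ly6a, and of those of Ly6a 19.0%. The share was 14.5% for Ly6c2, 4.76% for Ly6i and 32.7% for Ly6k, the last of these with Gm17189 alone. At 100 bases these shares were 10.1% for Ly6c1, 1.45% for Ly6a and 5.81% for Ly6c2. Ly6e, Ly6d and Ly6f shared no window of either size with any other annotated gene. The sources used here give neither the read length nor the treatment of reads that fit several places. Added up as 1 gene, the 5 close copies had 7172 reads in Rnf8-null cells and 275 in Rnf8-complemented cells, 22.1-fold higher in Rnf8-null cells (interval 19.6 to 25.1). A split of reads among the 5 does not change this sum. Whether shared reads were dropped or counted more than once would change it, and that is not known. Some 50-base windows of Ly6a and Ly6i also occurred in genes outside the 5.

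The windows just upstream of Ly6c1, Ly6c2 and Ly6f are shown because these 3 copies all had more reads in Rnf8-null cells and their promoters are held in the RefSeq table for GRCm38.p6. Each line gives the 250 bases before the annotated start, 5′ to 3′ on the strand of the gene, from chr15:75048838-75049087 (minus) for Ly6c1, chr15:75111972-75112221 (minus) for Ly6c2 and chr15:75268171-75268420 (plus) for Ly6f. Capitals mark the single run of at least 15 bases that all 3 windows hold.
Ly6c1: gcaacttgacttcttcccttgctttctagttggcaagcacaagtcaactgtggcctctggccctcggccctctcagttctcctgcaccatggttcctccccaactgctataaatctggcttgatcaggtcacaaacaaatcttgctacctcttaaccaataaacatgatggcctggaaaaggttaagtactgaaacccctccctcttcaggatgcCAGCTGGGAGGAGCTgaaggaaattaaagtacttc
Ly6c2: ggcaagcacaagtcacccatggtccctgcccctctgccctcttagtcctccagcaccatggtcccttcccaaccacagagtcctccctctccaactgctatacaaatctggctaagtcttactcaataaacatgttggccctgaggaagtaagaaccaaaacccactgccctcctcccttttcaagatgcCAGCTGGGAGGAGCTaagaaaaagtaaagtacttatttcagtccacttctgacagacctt
Ly6f: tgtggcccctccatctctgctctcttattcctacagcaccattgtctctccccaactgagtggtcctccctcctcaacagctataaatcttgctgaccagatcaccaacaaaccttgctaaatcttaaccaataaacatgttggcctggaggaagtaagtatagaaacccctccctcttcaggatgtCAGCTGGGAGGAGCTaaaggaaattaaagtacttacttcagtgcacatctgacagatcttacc
The windows were 75.9% identical between Ly6c1 and Ly6c2, 82.0% between Ly6c1 and Ly6f and 80.8% between Ly6c2 and Ly6f over the aligned bases. The shared run, CAGCTGGGAGGAGCT, began 35 bases before the start in Ly6c1, 60 in Ly6c2 and 63 in Ly6f. On either strand it occurred in 7 of 32851 RefSeq promoter windows of the same length (0.0213%), from 5 genes, namely these 3, Ly6a2 and Clcn5. Known motifs were also searched on both strands. The core of the interferon-stimulated response element, GAAA and again GAAA after 2 bases of any kind, occurred in 0 of the 3 windows and in 2.98% of all windows. The STAT site TTCNNNGAA occurred in 0 of the 3 and in 7.02% of all, and the AP-1 site TGANTCA in 0 of the 3 and in 6.75% of all. No match says only that these letters are not in these windows.

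The 8 genes lie within 510 kb of chromosome 15, from 74762056 to 75272235, and other genes of the same stretch were read at low levels. Between the first and the last member the table holds 6 other genes, all below a mean of 1 RPKM, of which 4 had 0 reads in Rnf8-complemented cells. The gene next to Ly6e, 2010109I03Rik, had 100 reads in Rnf8-null cells and 2 in Rnf8-complemented cells. The genes on either side of Ly6k, D730001G18Rik and Gml, each had 5 reads in Rnf8-null cells and 0 in Rnf8-complemented cells, the same counts as Ly6k. Hemt1, annotated as Gml2 and in the same stretch, went the other way. It had 7 reads in Rnf8-null cells and 13 in Rnf8-complemented cells, a log2 difference of -0.12. Next to Ly6f, 9030619P08Rik, annotated as a pseudogene, had 44 reads in Rnf8-null cells and 0 in Rnf8-complemented cells.

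None of the measured genes around the cluster was called higher. On plain ratios, which take any gene with at least 10 reads, 6 genes around the cluster were higher and 6 lower. The 6 higher all lay below a mean of 1 RPKM, so none of them was among the measured genes. Within 500 kb of a member the table holds 25 other genes, of which 8 were measured. Of these 8, 0 were higher, 2 were lower (Jrk and Zfp41) and 6 had neither call, beside 14.8% higher and 15.9% lower over all genes. With only 8 genes, counts of 0 and 2 do not stand apart from those shares. The 8 had a median log2 difference of -0.42. One of the 6, Rhpn1, stood at 0.378 RPKM in Rnf8-null cells and 1.75 RPKM in Rnf8-complemented cells, a log2 difference of -0.99. Both lower calls were lost with TMM scaling. Lynx1, a Ly6-domain gene that modulates nicotinic receptors and lies next to Ly6d, stood at 4.89 RPKM in Rnf8-null cells and 2.51 RPKM in Rnf8-complemented cells, a log2 difference of 0.75. Them6 stood at 23.0 RPKM in Rnf8-null cells and 32.9 RPKM in Rnf8-complemented cells, and Top1mt, a mitochondrial topoisomerase, at 6.86 RPKM in Rnf8-null cells and 8.98 RPKM in Rnf8-complemented cells.

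**Figure D3:**
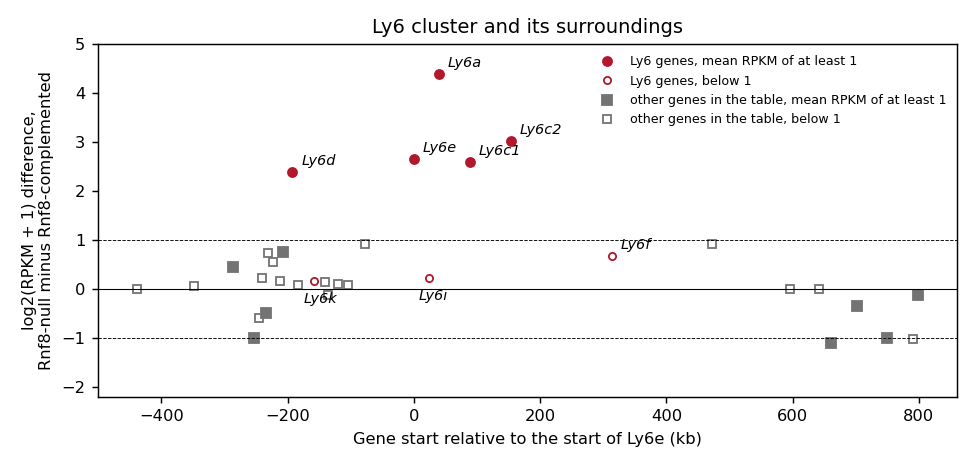
Log2(RPKM + 1) difference, Rnf8-null minus Rnf8-complemented, of the Ly6 genes (red circles) and the other tabulated genes within 500 kb (grey squares) by the distance of each gene's start from that of Ly6e in kb; open symbols have a mean RPKM below 1 and dashed lines mark 2-fold. Ly6a, Ly6c1, Ly6c2, Ly6d and Ly6e lie above the upper dashed line, and the filled grey squares lie below it.

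Other genes with the Ly6/uPAR protein fold were examined as a list. Of 36 such genes 28 were found in the table by symbol, and a gene held under an older symbol would be missed. Of the 28, 11 were measured. Of these, 8 were higher in Rnf8-null cells (14.8% among all genes measured), 0 were lower and 3 (Lynx1, Cd59b and Lypd1) had neither call. The median of the 11 was 1.79 on the log2 scale. Of the 8, 5 (Lypd3, Ly6g6c, Ly6g6d, Ly6g6e and Lypd6b) averaged at least 1 RPKM only through their level in Rnf8-null cells, so here and in the lists that follow the counts are a description. Lypd3, a surface protein of stratified and migrating epithelium, had 2067 reads in Rnf8-null cells and 0 in Rnf8-complemented cells. An annotated gene on the other strand, Gm26550, overlaps Lypd3. Plaur, the receptor of urokinase, stood at 50.1 RPKM in Rnf8-null cells and 8.82 RPKM in Rnf8-complemented cells, a ratio of 5.68 (5.26 to 6.14). Cd59a, which blocks the complement pore, stood at 15.4 RPKM in Rnf8-null cells and 6.10 RPKM in Rnf8-complemented cells.

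Of the 8 higher genes, 4 lie together on chromosome 17. Ly6g6d had 322 reads in Rnf8-null cells and 2 in Rnf8-complemented cells, and Ly6g6e 508 reads in Rnf8-null cells and 4 in Rnf8-complemented cells. These neighbours overlap on opposite strands and cannot be told apart without strand. Ly6g6c had 314 reads in Rnf8-null cells and 2 in Rnf8-complemented cells. It overlaps Mpig6b on the opposite strand, and reads in shared stretches cannot be told apart without strand. Ly6g5b stood at 125 RPKM in Rnf8-null cells and 35.5 RPKM in Rnf8-complemented cells, but its RefSeq model overlaps Csnk2b, a casein kinase subunit read at 340 RPKM in Rnf8-null cells and 95.9 RPKM in Rnf8-complemented cells, so its reads cannot be told from those of Csnk2b. Tex101, which encodes a partner of the Ly6k protein in mouse sperm, had 0 reads in Rnf8-null cells and 2 in Rnf8-complemented cells, and Ly6h and Gpihbp1 had 0 reads in both.

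The genes of the enzymes that build and attach the GPI anchor had a median log2 difference of -0.19, near the -0.17 of all genes measured. Of 26 measured genes, 2 were higher in Rnf8-null cells (Pgap2 and Pigh), 3 were lower (Pigk, Mppe1 and Piga) and 21 had neither call, beside 14.8% higher and 15.9% lower over all genes. With TMM scaling 3 were higher and 1 was lower. Pigk, the catalytic subunit of the transamidase that attaches the anchor, stood at 3.78 RPKM in Rnf8-null cells and 11.2 RPKM in Rnf8-complemented cells, a log2 difference of -1.35. Pgap2, which helps remodel the lipid of the anchor, stood at 23.8 RPKM in Rnf8-null cells and 8.61 RPKM in Rnf8-complemented cells.

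Other GPI-anchored proteins went both ways. Of 19 measured, 7 were higher in Rnf8-null cells, 4 were lower and 8 had neither call, beside the 14.8% higher and 15.9% lower over all genes, with a median of 0.36. Msln, which encodes mesothelin, stood at 100.5 RPKM in Rnf8-null cells and 0.652 RPKM in Rnf8-complemented cells, and the antiviral tether Bst2, which is also interferon-stimulated, at 975 RPKM in Rnf8-null cells and 24.1 RPKM in Rnf8-complemented cells. On the other side, the glypican gene Gpc1 stood at 0.0295 RPKM in Rnf8-null cells and 88.5 RPKM in Rnf8-complemented cells, and Alpl, the tissue-nonspecific alkaline phosphatase, at 8.15 RPKM in Rnf8-null cells and 511 RPKM in Rnf8-complemented cells. The surface antigen Cd24a, also GPI-anchored, stood at 153 RPKM in Rnf8-null cells and 101 RPKM in Rnf8-complemented cells, within 2-fold.

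**Figure D4:**
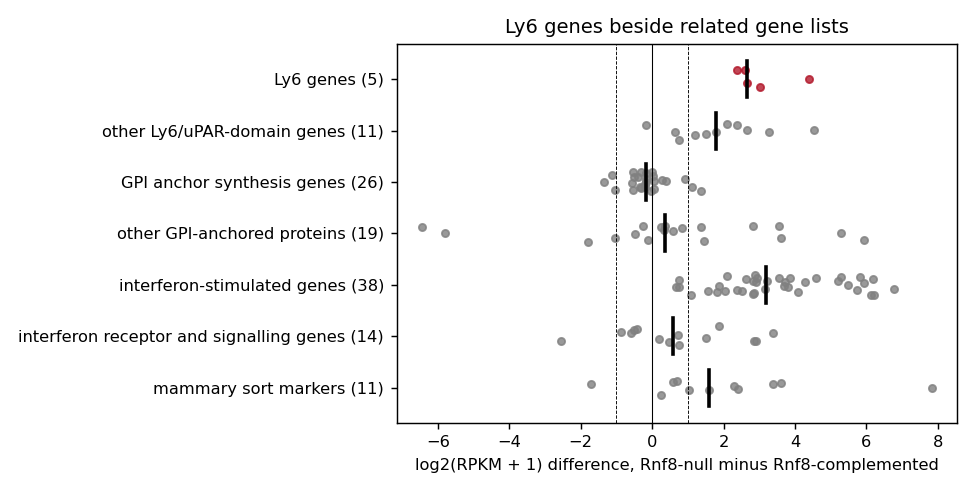
Log2(RPKM + 1) difference, Rnf8-null minus Rnf8-complemented, of each gene with a mean RPKM of at least 1 in the Ly6 genes (red) and 6 lists (grey), with the number of genes in brackets, a black bar at the median and dashed lines at 2-fold. The medians are 2.66 for the Ly6 genes, 3.20 for interferon-stimulated genes and -0.19 for GPI anchor synthesis genes.

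Genes that interferon raises were higher in Rnf8-null cells in the same comparison. Of 38 measured interferon-stimulated genes 35 were higher and 0 lower, beside 14.8% and 15.9% over all genes, with a median log2 difference of 3.20. Beside the Ly6 values, the interferon regulator gene Irf7 had a log2 difference of 6.76 and Isg15, a ubiquitin-like modifier, of 6.13. Of 14 measured genes of interferon receptors and signalling, 5 were higher (among them Ifnlr1, Irf9 and Stat2), 1 was lower (Socs3, a feedback inhibitor of cytokine receptors) and 8 had neither call. Ifngr1, a chain of the interferon-gamma receptor, stood at 51.6 RPKM in Rnf8-null cells and 17.4 RPKM in Rnf8-complemented cells. Ifnlr1, another receptor chain, stood at 16.8 RPKM in Rnf8-null cells and 0.713 RPKM in Rnf8-complemented cells. The remaining receptor chains listed, Ifnar1, Ifnar2, Ifngr2 and Il10rb, had neither call and lower values in Rnf8-null cells. Ifnar1 stood at 6.85 RPKM in Rnf8-null cells and 13.4 RPKM in Rnf8-complemented cells, and Ifnar2 at 16.9 RPKM in Rnf8-null cells and 26.0 RPKM in Rnf8-complemented cells. Ifngr2 stood at 31.8 RPKM in Rnf8-null cells and 43.3 RPKM in Rnf8-complemented cells, and Il10rb at 14.1 RPKM in Rnf8-null cells and 20.5 RPKM in Rnf8-complemented cells. Of the interferon genes themselves only Ifnb1 and Ifng were listed, and both were near 0. Ifnb1 had 6 reads in Rnf8-null cells and 2 in Rnf8-complemented cells. Ifng had 0 reads in Rnf8-null cells and 1 in Rnf8-complemented cells. The part of these genes in the Ly6 values was not tested.

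Surface markers that are used to sort mammary cells, as Ly6a is, were also examined. Of 11 measured, 7 were higher in Rnf8-null cells, 1 was lower (Itga5, an integrin that binds fibronectin) and 3 (Procr, Cd24a and Itgb1) had neither call, beside 14.8% higher and 15.9% lower over all genes. The median was 1.58, and Procr, with neither call, had a plain RPKM ratio of 2.09 (1.75 to 2.50). Itga6, the integrin CD49f of basal and progenitor cells, stood at 10.8 RPKM in Rnf8-null cells and 0.132 RPKM in Rnf8-complemented cells. The hyaluronan receptor Cd44 stood at 116 RPKM in Rnf8-null cells and 23.0 RPKM in Rnf8-complemented cells. The sort markers Kit and Prom1 lay below a mean of 1, with 2 reads in each library for Kit, and 0 reads in Rnf8-null cells and 12 in Rnf8-complemented cells for Prom1.

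The genes of the whole table whose pair of levels lay closest to a member were sought for the 3 members with the largest difference, by the distance in log2(RPKM + 1) over the 2 libraries. With only 2 libraries this compares levels and says nothing more. Nearest to Ly6a were Cnp at 52.5 RPKM in Rnf8-null cells and 1.57 RPKM in Rnf8-complemented cells (distance 0.16), and Ephx1 (distance 0.28). Nearest to Ly6c2 were Map7 (distance 0.07) and Tlcd2 (0.11). Nearest to Ly6e were Cd9, a tetraspanin, at 677 RPKM in Rnf8-null cells and 114 RPKM in Rnf8-complemented cells (distance 0.13), and Tmsb4x (0.30).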

How the data were processed

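The data were RNA sequencing values of 1 library per form of the AS0574 line. Per the labels' protocols, column-purified total RNA of cell lines was made into Illumina TruSeq libraries. Tools listed in the submitters' processing notes are bedtools, DESeq2, SAMtools 0.1.18 and STAR 2.4.0f1, with mm10 (GRCm38) as the build. The sources used here give no counting tool, annotation or use of strand. The authors deposited whole-number counts of reads and RPKM for the same genes. Each RPKM was the count over its column total and 1 whole-number gene length, to within 1.38e-08 bases. Columns were matched by sample title.

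Differences in log2(RPKM + 1), Rnf8-null minus Rnf8-complemented, were computed for all genes, with a 2-fold rule and a mean RPKM of at least 1. Exact 95% Poisson and conditional binomial (Clopper-Pearson) intervals were taken on counts with scipy 1.17.1, and TMM factors with edgeR 4.0.16 in R 4.3.3. With 1 library per group no test was run. The call rule and intervals were tried on simulated Poisson counts. These hold counting error only, so the trial says nothing on the spread between replicate libraries. The members, lists and rules were chosen with earlier results of these data known. Named genes are the 8 members, up to 4 genes per list with the largest difference, genes that complete a count of 5 or fewer, direct neighbours on the chromosome and the 2 genes nearest in level to each of 3 members. Cd44, Cd59a, Cdh5, Csnk2b, Gpihbp1, Hemt1, Ifnar1, Ifnar2, Ifnb1, Ifng, Ifngr2, Il10rb, Kit, Krt14, Krt5, Ly6g5b, Ly6g6c, Ly6h, Lypd6b, Pecam1, Prom1, Ptprc, Rhpn1, Tex101, Them6 and Top1mt fall outside this rule and were chosen after their values were seen. A gene that the rule names is not reported here. Positions and transcripts are those of GENCODE vM21 on GRCm38, which matched 23162 symbols. Of the 8 members, 3 matched a RefSeq promoter. Of the listed Ly6/uPAR genes, 8 were not analysed here.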

Additional observations from a re-analysis of the deposited data

How the results depend on the processing

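No paired analysis was possible because each group had 1 library. For the same reason no library could be left out. All 8 Ly6 genes had a difference above 0 under all 8 alternatives of scaling, pseudocount, filter and fold scale. Where both libraries hold reads, pseudocount, filter and fold scale cannot turn the sign, so only the scaling alternatives could. For Ly6f and Ly6k, with 0 reads in Rnf8-complemented cells, scaling could not turn it either. The count of 5 higher members stayed within 1.5 times under these 8 alternatives, at 4 with a mean RPKM of at least 5 and 7 on plain ratios. It was 5 on GENCODE exon lengths, an alternative chosen after seeing the data. It was 3 when the 5 close copies were counted as 1 gene, which leaves fewer genes. The members' median of 2.66 was 3.89 with a pseudocount of 0.1 RPKM, 1.68 with 5 RPKM, 2.49 without the filter, 2.84 with a mean RPKM of at least 5, 2.88 with TMM, 2.89 with median-of-ratios scaling, 2.63 without the 10 genes of most reads and 3.45 on plain ratios with at least 10 reads (Ly6f then set at its bound). TMM and median-of-ratios scaling moved the median of all genes by 0.20 and 0.21. Over all genes 1218 were higher and 1015 lower with a pseudocount of 5 RPKM, 1251 higher and 1273 lower with a mean RPKM of at least 5, and 3233 higher and 4066 lower on plain ratios. With a pseudocount of 5 RPKM, 5 other Ly6/uPAR genes, 1 GPI anchor synthesis gene and 4 sort markers were higher, and 0 GPI anchor synthesis genes, 2 GPI-anchored proteins and 0 genes around the cluster were lower. With a mean RPKM of at least 5, 4 other Ly6/uPAR genes, 1 GPI anchor synthesis gene and 4 sort markers were higher, and 1 GPI anchor synthesis gene and 0 genes around the cluster were lower. With TMM, and with median-of-ratios scaling, 1 GPI anchor synthesis gene and 0 genes around the cluster were lower. On plain ratios, 12 other Ly6/uPAR genes were higher and 3 lower, and 4 GPI anchor synthesis genes were higher and 3 lower. For GPI-anchored proteins the counts were 11 higher and 10 lower, and for interferon receptor and signalling genes 5 higher and 2 lower. Of the sort markers 8 were higher and 2 lower, and of the genes around the cluster 6 were higher and 6 lower. The higher and lower counts of interferon-stimulated genes stayed within 1.5 times of 35 and at 0 under these 8. Over these 8, the log2 difference ran from 1.03 to 4.28 for Ly6d, 3.19 to 5.01 for Ly6a, 2.62 to 2.89 for Ly6e and 0.03 to 1.09 for Ly6k. Depth limits Ly6f, Ly6i and Ly6k, whose counts were at most 30.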
